A study of Mus musculus with 4 samples.

Results

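The 10 genes described here are Mx1, Mx2, Rsad2, Cmpk2, Isg20, Bst2, Samhd1, Ifi44, Ifi27 and Ifi35, antiviral effectors and interferon-stimulated genes (ISGs) that were chosen by symbol from the 24421 genes of the count table. Rows with these symbols made up 1876 of the 1205261 rows of the table of A-to-G and T-to-C sites. RNA came from lung endothelial cells (ECs) of 2 inducible ADAR1 knockout (i-KO) mice, male, of the C57/BL6 strain, aged 2 weeks and from separate litters. ECs were selected with beads against CD31 and then ICAM-2 and grown in culture. From each mouse a culture treated with 4-hydroxytamoxifen (TM), which switches on a Cre recombinase that deletes exons 12 to 15 of ADAR1, was compared with a non-treated culture (CON), so mouse EC1 gave a CON and a TM library and so did mouse EC2, with n = 2 per group. The CON cells carry the same floxed alleles and inducible Cre. None of the 4 libraries came from TM-treated ECs without the floxed alleles, so in them an effect of TM itself and of the deletion cannot be told apart. Outside these libraries, the study used wild-type ECs as controls for selected ISGs by RT-PCR, and wild-type ECs cultured with TM for RNA editing. It also deleted ADAR1 in mice by a Cre under the VE-cadherin promoter, not by TM. By RT-PCR it reported higher ISGs in their ECs, Rsad2 and Mx2 among them. In TM-treated i-KO ECs it reported that loss of the RNA receptor MDA-5 lowered ISG levels.

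ADAR1 edits adenosines in double-stranded RNA, and cells without it can sense their own RNA through the MDA-5 pathway and make type I interferon. Interferon signalling ends in transcription factors that bind the interferon-stimulated response element (ISRE) in promoters of ISGs. The products of these ISGs block viruses at different steps. Mx proteins are dynamin-like GTPases that trap viral nucleocapsids, and in common laboratory strains such as C57BL/6 both Mx genes carry defects in their coding sequence. Viperin, encoded by Rsad2, turns CTP into a nucleotide that ends viral RNA chains, and Cmpk2, its divergent neighbour, encodes a nucleotide kinase. Isg20 encodes an RNA exonuclease, Samhd1 a dNTP hydrolase that starves reverse transcription, and Bst2 encodes tetherin, which holds budding virions at the cell surface. Ifi44, Ifi27 and Ifi35 are named for their induction by interferon, and the IFI35 protein binds NMI.

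The promoters are shown first because these genes are known for their ISREs. RefSeq promoter windows of GRCm38.p6, each 300 bases from 250 before to 50 after a gene start, were held for 7 of the 10 genes in 9 windows. None were held for Mx1, Mx2 and Ifi27. The ISRE core was searched as GAAANNGAAA and the interferon gamma-activated site (GAS) as TTCNNNGAA, on both strands. The ISRE core was found in the windows of Rsad2 and Bst2, and in 3.44% of all 32851 windows. The GAS letters were found in windows of Isg20, Bst2, Samhd1 and Ifi35, and in 8.3% of all windows. Windows of Cmpk2 and Ifi44 held neither. Of 24 other ISGs with a window, 14 held the ISRE core and 5 the GAS letters. Capitals mark the matches in the windows of Rsad2 (chr12:26456403-26456702, minus strand), Cmpk2 (chr12:26468965-26469264, plus strand), Bst2 (chr8:71537423-71537722, minus strand) and Ifi35 (chr11:101448162-101448461, plus strand), written 5′ to 3′ along the gene. The ISRE core of Rsad2 begins 120 bases before the start. In Bst2 there are 2 overlapping ISRE cores 130 and 124 bases before the start, and the GAS letters overlap the first of them. The GAS letters of Ifi35 lie just after the start.
Rsad2: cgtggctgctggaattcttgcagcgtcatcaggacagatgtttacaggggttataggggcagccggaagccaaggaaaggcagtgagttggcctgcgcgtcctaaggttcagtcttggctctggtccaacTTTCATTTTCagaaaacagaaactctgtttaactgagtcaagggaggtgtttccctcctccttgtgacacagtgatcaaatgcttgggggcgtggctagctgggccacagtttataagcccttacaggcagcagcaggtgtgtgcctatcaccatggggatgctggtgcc
Cmpk2: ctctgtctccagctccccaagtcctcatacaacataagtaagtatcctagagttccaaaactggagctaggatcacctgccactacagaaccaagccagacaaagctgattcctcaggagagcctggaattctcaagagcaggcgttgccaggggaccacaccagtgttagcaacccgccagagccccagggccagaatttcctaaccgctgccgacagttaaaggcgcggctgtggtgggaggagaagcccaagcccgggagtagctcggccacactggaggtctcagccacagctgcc
Bst2: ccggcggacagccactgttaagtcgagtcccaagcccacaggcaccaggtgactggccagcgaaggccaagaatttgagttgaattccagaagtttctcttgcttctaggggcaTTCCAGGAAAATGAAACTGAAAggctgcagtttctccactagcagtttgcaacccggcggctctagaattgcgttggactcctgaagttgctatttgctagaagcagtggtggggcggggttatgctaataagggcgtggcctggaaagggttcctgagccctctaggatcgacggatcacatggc
Ifi35: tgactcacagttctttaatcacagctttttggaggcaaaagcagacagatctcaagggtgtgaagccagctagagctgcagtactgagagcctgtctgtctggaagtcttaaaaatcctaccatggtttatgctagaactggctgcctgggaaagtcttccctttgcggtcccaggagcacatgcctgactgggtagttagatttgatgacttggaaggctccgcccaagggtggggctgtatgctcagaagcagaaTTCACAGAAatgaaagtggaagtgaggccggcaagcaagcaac

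Each gene was read in 2 ways. The gene count is the number of read pairs that HTSeq assigned to the symbol, and the exonic depth is the median number of reads over the sites that a library lists in the gene's exons and UTRs. Counts on genes summed to 1095488 to 1778732 per library, which was 0.823% to 0.858% of all rows of each count table, and 92.8% to 93.9% of each total lay on no gene. Where no CON library went over 3 counts, the fold given is the mean CPM in TM over that of 3 counts per CON library. This bound covers no sampling error in either group. A site is listed in a library only where an altered base was read in it, so few sites are listed in a gene with few reads. Of the listed sites of the 10 genes, 77.4% to 87% per library rested on 1 altered read. Depth was scaled per 100000000 read pairs of the count table total and taken as a ratio within a mouse where both libraries list at least 3 exonic sites. No test was run on depth, for which an exact test over 2 mice could not give a p under 0.5, and depth does not separate the strands. In bulk RNA, more cells with a transcript and more transcript per cell cannot be told apart.

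Deletion was checked first in the depth of Adar, the gene of ADAR1. Over exons 1 to 11, the median depth was 152.5 reads in CON and 664 in TM for EC1, and 176 in CON and 1001.5 in TM for EC2. In exons 12 to 14, where CON listed 3 sites with a median of 145 reads for EC1 and 1 site of 169 reads for EC2, EC1 TM listed no site and EC2 TM listed 2, with a median of 65.5 reads. In exon 15, the last exon, CON listed 2 sites with a median of 163.5 reads for EC1 and 1 site of 165 reads for EC2. There EC1 TM listed no site and EC2 TM listed 1, of 47 reads. Of 12 endothelial markers, 10 were tested, 0 rose and 1, Cldn5, fell, and their summed level was 1350 to 1470 CPM in all 4 libraries. By exonic depth 11 of the 12 could be read, with a median log2 ratio of TM over CON of -0.53 for EC1 and -0.59 for EC2, and 1, Cldn5, was at least 2-fold lower in both mice. The 8 leukocyte markers summed to 52.9 to 74.2 CPM, with 66.7 in CON and 74.2 in TM for EC1, and 54.7 and 52.9 for EC2. Ptprc had 0 or 1 counts in each library, Cd3e had 0, and Lyz2 had 0 counts with a listed depth of at most 41 reads. Csf1r had 54 counts in CON and 63 in TM for EC1, and 50 and 53 for EC2. It listed an exonic site only in EC2 TM, with 7 reads. Cd68 had 19 counts in CON and 17 in TM for EC1, and 10 and 39 for EC2. Of the plasmacytoid dendritic cell markers, Siglech was at 0. Ccr9 had 30 counts in CON and 25 in TM for EC1, and 24 and 23 for EC2, with no listed exonic site. Tlr9 had 7 and 4 counts for EC1, and 4 and 5 for EC2. The 6 fibroblast and smooth muscle markers summed to 50.1 to 67.0 CPM, and none listed 3 exonic sites in all 4 libraries. Of these, Col1a1 had a depth of 72 reads in CON and 24 in TM for EC1, and 118 and 75 for EC2, and Dcn had 339 and 122.5 for EC1, and 447 and 215 for EC2. Acta2 had 279 and 51 for EC2 and no listed site in EC1 TM, and Pdgfrb listed sites in CON only. Pdgfra went the other way in EC2, with 3 reads in CON and 23 in TM. Myh11 had 3 and 7.5 for EC1, and 7 and 6 for EC2. The part of endothelial and fibroblast content in the results below was not tested.

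By gene count, 9 of the 10 genes rose in TM and 0 fell. Among the genes above the floor in CON, the log2 fold change was 5.52 for Rsad2, 4.90 for Cmpk2 and 3.76 for Ifi44, and 2.12 for Bst2 and 2.08 for Ifi27. The order turned without EC1 CON, where Ifi44 stood at 5.22 and Rsad2 at 5.08. It also turned without EC2 CON, where Cmpk2 stood at 6.41 and Rsad2 at 6.1. Ifi35 did not pass the threshold. The strand that a count was taken from bears on these values, and the comparison with depth and with neighbouring genes follows after the counts. Of all 7899 genes tested in edgeR (quasi-likelihood, adjusted after Benjamini and Hochberg), 347 (4.39%) rose and 265 fell. With a replicate block for the mouse, edgeR called 600 and 584, and 9 of the 10 genes still rose. Their median log2 fold change, over all 10, was 3.66, or 3.12 with the 3 genes at the floor in CON set to their bound, against 0.00174 over all genes tested. In 9 of the 10 genes both TM libraries lay above both CON libraries, which held for 25.3% of all tested genes.

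Mx1 (chr16:97447035-97462907, minus strand) had 1 count in CON and 18 in TM for mouse EC1, and 0 in CON and 20 in TM for mouse EC2. Mx2 (chr16:97535308-97560900, plus strand) had 43 and 46 counts in the TM libraries and none in either CON library. The groups did not overlap in either gene, and both CON groups lay under the floor of 3 counts. Mean CPM in TM was 5.12-fold that of 3 counts per CON library for Mx1 (adjusted p = 0.00222 from edgeR). For Mx2 it was 12-fold (adjusted p = 3.24e-06 from edgeR). GENCODE vM21 annotates Mx1 as protein coding and Mx2 as a polymorphic pseudogene, and RefSeq lists both as transcribed pseudogenes. The Mx1 call was lost in DESeq2 (adjusted p = 0.117) and without EC1 TM (0.177), EC2 CON (0.0689) or EC2 TM (0.0652) in edgeR. Mx2 was not called in DESeq2 with the mouse as a block (adjusted p = 0.415).

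Rsad2 (chr12:26442746-26456452, minus strand) had 3 counts in CON and 217 in TM for mouse EC1, and 6 in CON and 324 in TM for mouse EC2. Its start lies 12751 bases from that of Cmpk2 (chr12:26469204-26479837, plus strand), and the genes are read away from each other. Cmpk2 was counted 1 time in CON and 86 times in TM for mouse EC1, and 5 times in CON and 157 times in TM for mouse EC2. Both neighbours thus had at most 6 counts in CON and at least 86 in TM. The log2 fold change of Cmpk2 was 4.90 with a standard error of 0.53 (adjusted p = 8.71e-08 from edgeR), beside 5.52 with a standard error of 0.45 for Rsad2 (adjusted p = 3.4e-10 from edgeR). With so few counts in CON the size of the fold rests on those libraries. Without EC1 CON the log2 fold change of Cmpk2 was 4.16 and without EC2 CON 6.41, and for Rsad2 it was 5.08 and 6.1.

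Isg20 (chr7:78913424-78920396, plus strand) stood at 2 counts in each CON library, at 19 in EC1 TM and at 47 in EC2 TM. Its mean CPM in TM was 8.13-fold that of 3 counts per CON library (adjusted p = 0.000819 from edgeR). The call of Isg20 was lost without EC2 TM (adjusted p = 0.137 from edgeR). For Samhd1 (chr2:157097533-157135265, minus strand) the counts were 2 in CON and 29 in TM for mouse EC1, and 5 in CON and 59 in TM for mouse EC2. Samhd1 rose by 3.21 on the log2 scale, with a standard error of 0.60 (adjusted p = 0.000439 from edgeR). Without EC1 CON it was 2.68 and without EC2 CON 4.01. Both enzymes had at most 5 counts in any CON library, and the groups did not overlap.

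Bst2 (chr8:71534255-71537456, minus strand), the gene of tetherin, was counted 18 times in CON and 70 in TM for mouse EC1, and 16 in CON and 123 in TM for mouse EC2. It was above the floor in CON, and its log2 fold change was 2.12 with a standard error of 0.39 (adjusted p = 0.000423 from edgeR). Ifi44 (chr3:151730922-151749960, minus strand) had 5 counts in CON and 35 in TM for mouse EC1, and 1 in CON and 76 in TM for mouse EC2. Ifi44 rose by 3.76 on the log2 scale, with a standard error of 0.60 (adjusted p = 5.09e-05 from edgeR). The log2 fold change of Ifi44 was 5.22 without EC1 CON and 3.06 without EC2 CON. Neither Bst2 nor Ifi44 lost its call in any alternative that kept it in the fit.

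Ifi27 (chr12:103434211-103440239, plus strand) had 23 counts in CON and 70 in TM for mouse EC1, and 10 in CON and 110 in TM for mouse EC2, a log2 fold change of 2.08 with a standard error of 0.42 (adjusted p = 0.000953 from edgeR). It was 2.76 without EC1 CON and 1.62 without EC2 CON. Ifi35 (chr11:101448407-101458698, plus strand) was counted 151 times in CON and 111 in TM for mouse EC1, and 79 in CON and 103 in TM for mouse EC2. On the CPM scale Ifi35 was 134 in CON and 100 in TM for EC1, and 72.1 in CON and 58.6 in TM for EC2, so the groups overlapped. Its log2 fold change was -0.39 with a standard error of 0.35 (adjusted p = 0.591 from edgeR), and without EC1 CON it was 0.11. Both genes stood apart from the other 8 once the depth was read.

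**Figure D1:**
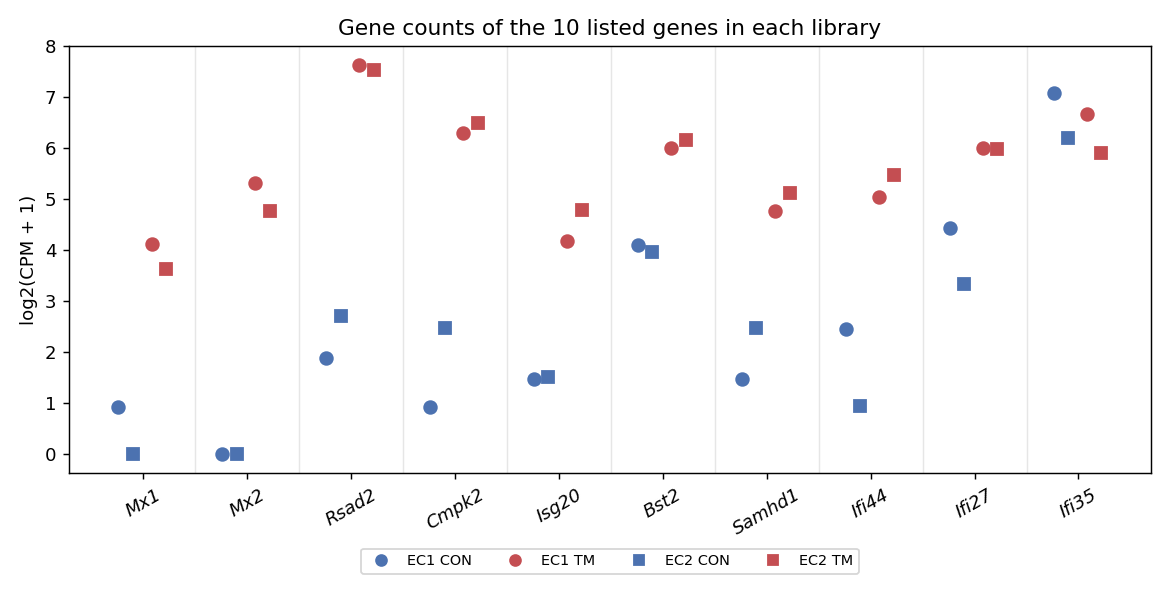
Gene counts of the 10 listed genes as log2(CPM + 1), with circles for mouse EC1, squares for mouse EC2, blue for CON and red for TM. In 9 genes both TM points lie above both CON points, and in Ifi35 they overlap.

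Exonic depth could be read in both mice, with 3 or more sites in every library, for 5 of the 10 genes. In Rsad2 the depth was 26 reads over 6 listed sites in CON and 4472 over 163 in TM for mouse EC1, and 34 over 5 in CON and 6002 over 141 in TM for mouse EC2. The scaled depth was 174-fold higher in TM in EC1 and 122-fold in EC2. The median listed site of Rsad2 was thus covered by 4472 reads in EC1 TM, where the whole gene had 217 counts. Samhd1 had a depth of 40 reads in CON and 904 in TM for mouse EC1, and 106 in CON and 1564.5 in TM for mouse EC2, which was 22.8-fold and 10.2-fold higher per read pair. In EC1 the Samhd1 difference was 15.8-fold over exons without UTRs and 11.2-fold over the 3′ UTR, and CON and TM list different sites. For Ifi44 the depth was 93 reads in CON and 1741 in TM for EC1, and 125 and 2739 for EC2, or 18.9-fold and 15.2-fold higher in TM. Bst2 was the deepest gene in CON, with 1166 reads in EC1 CON and 2384 in EC2 CON. Its depth in TM was 7479 reads in EC1 and 9665 in EC2, a scaled difference of 6.48-fold and 2.81-fold. The depth of Ifi35 was 106 reads over 5 listed sites in CON and 872 over 17 in TM for mouse EC1, and 136 over 6 in CON and 1574 over 28 in TM for mouse EC2, or 8.31-fold and 8.01-fold higher in TM.

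These 5 genes list at least 3 exonic sites in all 4 libraries, and all 5 were at least 2-fold deeper in TM in both mice. Over the 6836 genes that could be read in this way the share was 3.95%, and the median log2 ratio was 0.05 in EC1 and -0.04 in EC2. The other 5 genes could not be given a ratio in both mice by that rule. Mx1, Mx2, Cmpk2 and Isg20 listed 0 to 2 exonic sites in a CON library, against 9 to 97 in a TM library. Cmpk2 had a depth of 36.5 reads over 2 sites in CON and 3067 over 97 in TM for mouse EC1, and 39 at 1 site in CON and 4409.5 over 92 in TM for mouse EC2. The depth of Mx2 was 17 reads at 1 site in CON and 881 over 51 in TM for mouse EC1, and 13.5 over 2 in CON and 1155 over 58 in TM for mouse EC2. In Mx1 there was 1 listed site of 4 reads in EC1 CON and none in EC2 CON, beside medians of 713 and 891 reads in EC1 TM and EC2 TM. Isg20 likewise had 1 site of 19 reads in EC1 CON and none in EC2 CON, beside 721 and 1349 reads in TM. The CON values of these 4 genes rest on 1 or 2 sites.

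Depth is a level per base, so the genes can be ordered by it. By scaled depth in TM the order was Bst2, with 5675 in EC1 and 4662 in EC2, then Rsad2 with 3393 and 2895, Cmpk2 with 2327 and 2127, and Ifi44 with 1321 in both. The ranges of these 4 did not overlap. Samhd1, Ifi35, Mx2 and Isg20 followed between 547 and 759, and each of the first 3 overlapped the next. Mx1 had 541 in EC1 and 430 in EC2. Ifi27 came last with 75.5 and 78.6. Listed sites lay in several exonic pieces of both Mx genes. A piece enters only if a site is listed in it, so a part without reads would not show. Mx1 listed no site in its 5′ UTR. Of the 10 exonic pieces of Mx1 with a listed site, piece 7 from the 5′ end listed none in EC1 TM. The medians of Mx1 pieces ran from 552 to 920 reads in EC1 TM and from 700 to 1109.5 in EC2 TM. Across the 15 pieces of Mx2 they ran from 726 to 2147 in EC1 TM, with the highest value in the 5′ UTR.

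**Figure D2:**
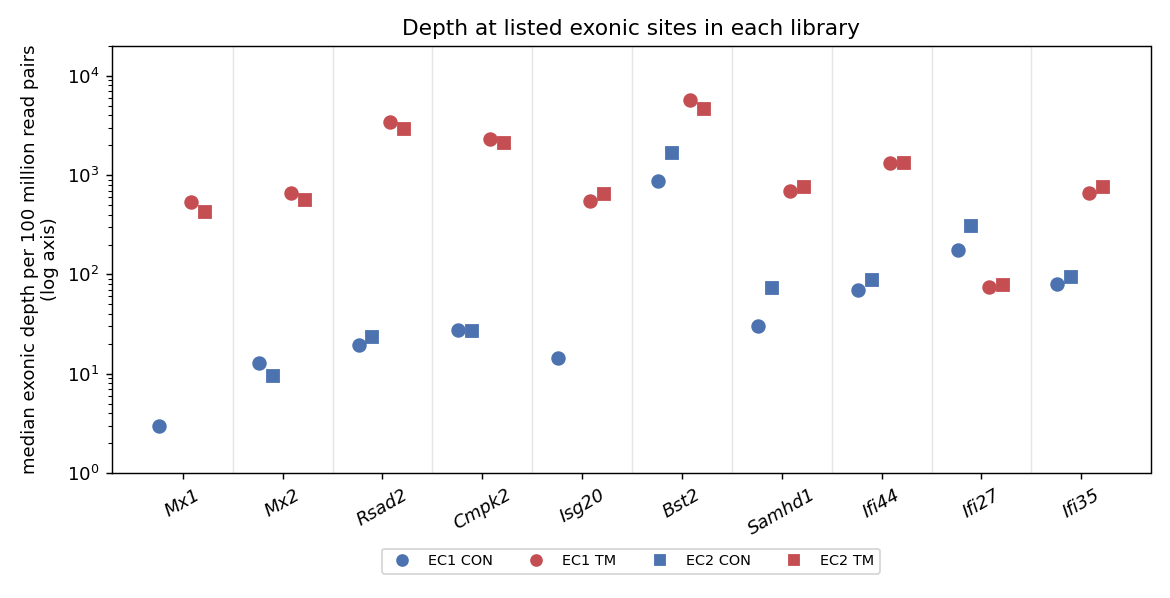
Median depth at listed exonic sites per 100000000 read pairs on a log axis, with circles for mouse EC1, squares for mouse EC2, blue for CON and red for TM. A missing point means that no site is listed, as for Mx1 and Isg20 in EC2 CON. Where both libraries of a mouse list a site, TM lies below CON in Ifi27 and above it in the other genes, among them Ifi35.

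Introns of Rsad2 and Cmpk2 were also deeper in TM. Intronic depth of Rsad2 in EC1 was 1 read over 5 sites in CON and 430.5 over 94 in TM, and in EC2 it was 3 over 5 sites and 455 over 88. Cmpk2 introns had a depth of 1 read in CON and 177 in TM for EC1, and 2 in CON and 179.5 in TM for EC2. In Ifi27 introns EC2 listed 2 sites in each library, with a median of 50.5 reads in CON and 17 in TM. In TM the intronic depth was 9.63% and 7.58% of the exonic depth in Rsad2 for EC1 and EC2, 5.77% and 4.07% in Cmpk2, 19.1% and 27.5% in Mx1, and 14.3% and 11.4% in Mx2. It was 1.37% to 4.94% in Bst2, Samhd1, Ifi44 and Ifi35. The share was thus larger in both Mx genes than in the last 4 genes in each mouse, a difference that has no test here.

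**Figure D3:**
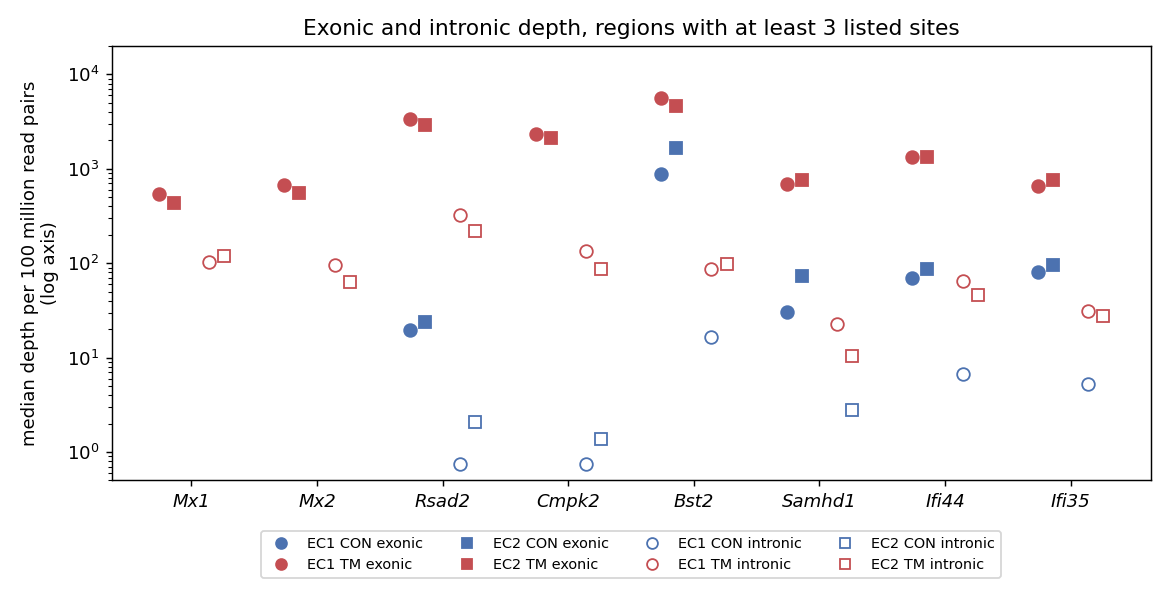
Exonic depth (filled) and intronic depth (open) per 100000000 read pairs on a log axis for genes with at least 3 listed sites in a region, with circles for mouse EC1, squares for mouse EC2, blue for CON and red for TM. Intronic points of TM lie below the exonic ones in every gene shown, by the least in Mx1.

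Count and exonic depth disagreed for 2 genes. Ifi27 rose by count, while its depth was 235 reads over 7 sites in CON and 99.5 over 2 in TM for mouse EC1, and 444 over 4 in CON and 163 over 3 in TM for mouse EC2. Per read pair the depth of Ifi27 in TM was 0.428 times that in CON in EC1 and 0.254 times in EC2. Ifi35 did not pass the threshold by count, with a depth that was 8.31-fold and 8.01-fold higher in TM as given above. For the other 8 genes count and depth both were higher in TM wherever both could be read. Among 304 called genes of the whole table with 3 or more exonic sites in every library, 34 (11.2%) had a depth ratio on the other side of 1 in both mice from their count. Neither Ifi27, with 2 sites in EC1 TM, nor Ifi35, which was not called, is among these 304. Of the 10 genes 4 are among them, and all 4 were at least 2-fold deeper in TM in both mice.

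**Figure D4:**
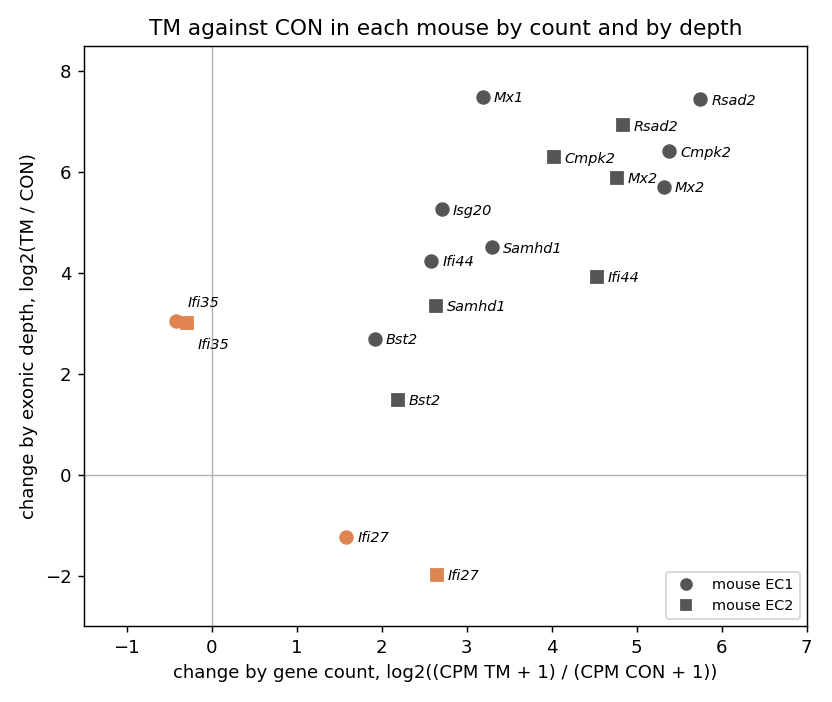
Change by gene count (x axis, log2 of CPM + 1 in TM over CON) against change by exonic depth (y axis, log2 of scaled depth in TM over CON) in each mouse, for genes with at least 1 listed site per library. Ifi27 and Ifi35, in orange, stand apart from the other genes, Ifi27 below 0 by depth and Ifi35 just below 0 by count.

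Both genes meet a gene on the opposite strand at their 3′ end. Downstream of Ifi27, after 1927 bases, lies Ifi27l2a (chr12:103442167-103443680, minus strand), a relative of Ifi27 that is read towards it. Counts of Ifi27l2a were 372 in CON and 83 in TM for mouse EC1, and 580 in CON and 167 in TM for mouse EC2, and it fell by 2.33 on the log2 scale with a standard error of 0.32 (adjusted p = 4.42e-06 from edgeR). The depth of Ifi27l2a was 66 reads in CON and 210 in TM for EC1, over 3 sites each, and 579.5 over 4 sites in EC2 TM with no listed site in EC2 CON. The count of each of these 2 genes went the way of the depth of the other wherever that depth could be read. Ifi35 ends 46 bases from Vat1 (chr11:101458745-101466230, minus strand), a vesicle membrane protein gene, and its exons also overlap those of the antisense gene Gm11626, which has no row in the count table under that name. Counts of Vat1 were 200 in CON and 1109 in TM for mouse EC1, and 190 in CON and 1424 in TM for mouse EC2 (a rise of 2.37 ± 0.30, SE, on the log2 scale with an edgeR adjusted p = 1.32e-06). Its depth was 726.5 reads in CON and 580 in TM for EC1, and 1128 and 1200.5 for EC2, so the rise of the Vat1 count stood beside a scaled depth that differed by a log2 of -0.31 and -0.44. No exon of the other 9 genes overlaps an exon on the opposite strand.

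**Figure D5:**
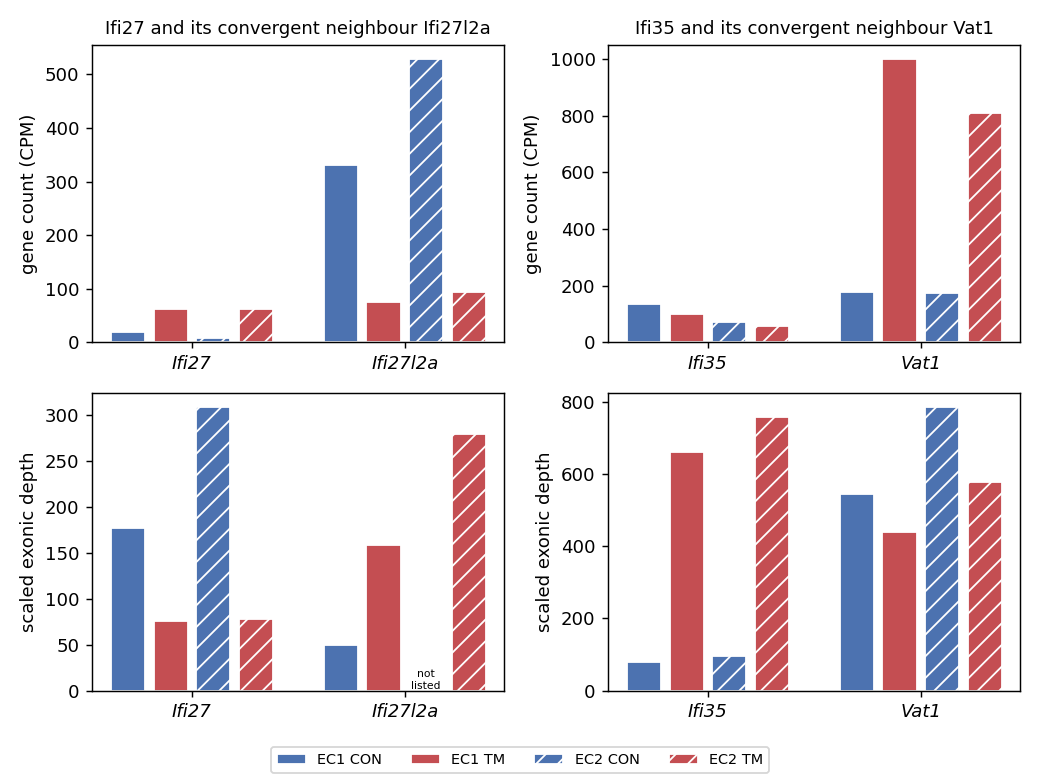
Counts in CPM (top) and scaled exonic depth per 100000000 read pairs (bottom) of Ifi27 beside Ifi27l2a and of Ifi35 beside Vat1, with blue bars for CON, red bars for TM and hatching for mouse EC2. In each pair the count of 1 gene and the depth of the other are on the same side of CON in TM, and the depth of Ifi27l2a is not shown for EC2 CON, which lists no site.

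Convergent neighbours within 5000 bases were found for 3 further genes. Tmprss2, downstream of Mx2, had 11 counts in CON and 690 in TM for mouse EC1, and 12 in CON and 503 in TM for mouse EC2 (a rise of 5.44 ± 0.43, SE, on the log2 scale with an edgeR adjusted p = 2.29e-10). The exonic depth of Tmprss2 in TM was 30 reads in EC1 and 27.5 in EC2. Tldc2, downstream of Samhd1, had 3 counts in CON and 42 in TM for EC1, and 1 and 24 for EC2 (adjusted p = 0.000881 from edgeR) and no listed exonic site in any library. Bace2, downstream of Mx1, had 3 counts in EC1 CON and 0 in the other 3 libraries. Over the whole table, there were 741 pairings of a gene with both readouts and a convergent partner that overlaps it or lies within 2000 bases. A gene with several partners enters once for each. Over these pairings, the log2 fold change of the gene by count correlated with its own mean log2 depth ratio with r = 0.17 (rho = 0.17). With that of the partner it was r = 0.53 (rho = 0.45). The genes share the same 4 libraries and are not independent. In 42 pairings the gene was called, and its count had the sign of the partner's depth in 38 and that of its own depth in 26. Across 3462 genes without such a partner, count and own depth correlated with r = 0.61 (rho = 0.48). The library kit keeps the strand of the RNA and HTSeq was run with its default strand setting. Which strand each count came from was not tested.

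Few sites of the 10 genes had an editing rate that could be compared. The editing rate is the share of reads with the altered base, and a site passed if its depth was 5 or more, with 3 or more altered reads and a rate between 0.05 and 0.95. No exonic or UTR site of the 10 genes passed in any library. Of the exonic bases read at listed sites, 0.552% were altered in CON and 0.0506% in TM for EC1, and 0.209% and 0.0398% for EC2. This share is no editing rate, since every listed site holds at least 1 altered read whatever its depth and depth was lower in CON. In CON, 45 of the 96 altered reads for EC1 and 54 of the 116 for EC2 lay at 2 sites of the Rsad2 3′ UTR where all reads were altered. In introns and flanks, 15 sites passed in at least 1 library, with 0 in CON and 11 in TM for mouse EC1, and 1 in CON and 7 in TM for mouse EC2. Neither CON library listed 5 or more reads at 13 of the 15 sites, and most of these were listed in neither. The depth of a site that is not listed is not known. A change of editing from CON could thus be read at few of the 15 sites.

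In Samhd1 introns, 1 site in a B1_Mur2 element of the Alu family (position 157130928 of chromosome 2) was altered in 18 of 39 reads in EC1 TM and 15 of 28 in EC2 TM, and listed in neither CON library. A site in a B1_Mus2 element of the same gene (position 157126482) was altered in 3 of 15 reads in EC1 TM and 3 of 14 in EC2 TM, with 1 of 2 reads in EC2 CON. Edited-type bases were thus read in Samhd1 introns of the TM libraries. They were also read in TM at sites in the flanks of Cmpk2 that neither CON library listed. At position 26461337 of chromosome 12 they made up 3 of 9 reads in EC1 TM and 3 of 10 in EC2 TM. The intronic Bst2 site at position 71537125 of chromosome 8 was altered in 1 of 22 reads in EC1 CON and 9 of 127 in EC1 TM, and in 7 of 18 reads in EC2 CON. Only this site and the Cmpk2 flank site at position 26486630 of chromosome 12 could be tested, both in EC1, and neither was called by Fisher's exact test, two-sided, with adjustment over all sites (adjusted p = 1 for both, unadjusted p = 1 for Bst2 and 0.508 for Cmpk2). The test compares the reads of 2 libraries and covers counting error only. The Cmpk2 site at position 26486630 was altered in 19 of 19 reads in CON and 26 of 28 in TM for EC1. For EC2 it was altered in 29 of 29 and 44 of 46, so it does not bear on a loss of editing. Among all sites 0.959% of 9800 sites were called in EC1 and 2.46% of 10402 in EC2. The test needs an altered read in both libraries of a mouse, so a site edited in CON with none altered in TM does not enter it.

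Other ISGs were read from a list. Of its 30 genes, 27 were tested, 18 rose and 0 fell, with a median log2 fold change of 2.71. Ifit1, which binds the ends of viral RNA, rose by 4.22 on the log2 scale, its relative Ifit2 by 5.01, and Isg15, a ubiquitin-like modifier, by 4.12. Stat2, which carries the interferon signal into the nucleus, rose by 3.47. The other 9 did not pass, and 6 of them were at least 2-fold deeper in TM in both mice, among them Usp18, which removes ISG15 from proteins. Usp18 had 34 counts in CON and 19 in TM for EC1, and 29 and 45 for EC2, beside depths of 69 and 2009 reads for EC1 and 44 and 3366 for EC2. Of the 19 ISGs readable by depth in all libraries, 18 were at least 2-fold deeper in TM in both mice, beside 3.95% of all genes. The same gap between count and depth as in Ifi35 was therefore present in other ISGs.

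Relatives, partners and pathways of the 10 genes were given from lists as well. Of 9 relatives and partners 6 were tested, Nmi, the partner of IFI35, and Samd9l rose, and Ifi27l2a fell. Nmi had 7 counts in CON and 28 in TM for EC1, and 8 and 53 for EC2, with depths of 30 and 471 reads and of 111 and 746 reads (a rise of 2.03 ± 0.52, SE, on the log2 scale with an edgeR adjusted p = 0.0106). Ifi44l had 0 counts in all 4 libraries. By count, none of the 6 tested nucleotide pool enzymes passed, and neither did any of the 4 tested genes of cytosolic iron-sulfur assembly, which builds the cluster of viperin. By depth, 6 and 4 genes of these lists could be read in all 4 libraries, and 0 changed 2-fold or more in both mice. Their median log2 depth ratios were -0.12 and -0.49 for the enzymes in EC1 and EC2, and 0.11 and 0.19 for the assembly genes. Rrm2, the small subunit of ribonucleotide reductase, stood at 0.02 ± 0.52 (SE) by count on the log2 scale. Its log2 depth ratio was -0.15 in EC1 and -0.55 in EC2, and that of Rrm1, not tested by count, was -0.94 and -0.91. Of the dynamin superfamily, to which the Mx proteins belong, 7 of 10 were tested and 1, Mfn1, rose by 1.15 on the log2 scale (adjusted p = 0.0254 from edgeR), with a depth log2 ratio of -0.13 in each mouse. None of the 8 interferon genes was tested. Ifnb1 had 0 counts in all libraries, yet listed 3 exonic sites in each TM library, with a median depth of 121 reads in EC1 and 189 in EC2, and none in CON. For ADAR1-deficient ECs the study stated that type I interferon levels, IFN-β among them, did not increase.

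The 5 genes whose log2 CPM over the 4 libraries lay nearest to the mean profile of the 10, by Euclidean distance of centred values, were Cxcl10, Arap2, Nup62-il4i1, Slfn2 and Chac1, at distances of 0.117 to 0.229. Cxcl10, a chemokine induced by interferon, had 0 counts in CON, 11 in EC1 TM and 19 in EC2 TM.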

How the data were processed

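Libraries were made with a stranded, ribosomal RNA-depleted kit from 4 cultures and sequenced as read pairs. Per the study's methods and the submitters' processing notes, the authors used Trimmomatic 0.38 for trimming, STAR 2.6.1a for alignment to mm10 and HTSeq 0.11.2, at default settings, for counting per gene, and deposited raw counts, 1 table per library. Rows that name no gene (no feature, 92.8% to 93.9%, and alignments that were not unique, 5.29% to 6.32%) stayed out of library sizes. The authors called sites with BCFtools mpileup and deposited reads with the reference and altered base as counts and the editing rate as a fraction. Depth was computed as the sum of both bases.

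TM and CON counts entered the quasi-likelihood test of edgeR 4.0.16 after filterByExpr and TMM scaling, with condition as the only term, in R 4.3.3 at an adjusted p of 0.05. Standard errors were taken from the fold change and its F statistic. Replicates of a number come from the same mouse, and their deviations from the group means correlated with r = 0.163 over genes. Sites were tested with Fisher's exact test in scipy 1.17.1, adjusted over all sites of a mouse. Alternatives were DESeq2 1.42.0, the block, other filters and scalings, and leaving out each library. Both tests were tested on simulated data. A count of 0 allows 3 counts, or 1.69 to 2.74 CPM, and covers counting error only.

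The members and gene lists were chosen with earlier results of these data known. Genes named were the 10, those of the lists, overlapping and nearest genes, and the 5 nearest profiles. The limits of 2000 and 5000 bases for convergent genes and the depth limit on near-fixed sites were set after seeing the data. Gene positions came from GENCODE vM21 (GRCm38) and promoter sequences from RefSeq.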

Additional observations from a re-analysis of the deposited data

Results flagged for a closer look

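More sites assigned to Cmpk2 but outside its exons and introns were listed in the TM libraries than in CON. Downstream of Cmpk2 the site table listed 34 sites in EC1 TM and 28 in EC2 TM, against 4 in EC1 CON and 1 in EC2 CON. On the side of Rsad2 it listed 27 sites in EC1 TM and 21 in EC2 TM, against 2 and 1 in CON. Of these, 12 in EC1 TM and 6 in EC2 TM lay past the 3′ end of Rsad2, so they are downstream of Rsad2 although assigned to Cmpk2. The median depth downstream was 2.5 reads in CON and 17.5 in TM for EC1, and 29 reads at the 1 CON site and 10.5 in TM for EC2. On the side of Rsad2 it was 1 read in CON and 2 in TM for each mouse. The number of listed sites grows with coverage.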

How the results depend on the processing

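Of the 10 genes, 9 were called higher by count, and 8 in DESeq2, 9 with DESeq2 size factors, 9 without a filter, and 7 to 9 when a library was left out. With at least 10 counts in every library 2 were called, since only Bst2, Ifi27 and Ifi35 stayed in the fit. With the mouse as a replicate block, 9 were called in edgeR and 6 in DESeq2, where Mx2 missed the threshold and Mx1 and Isg20 were given no adjusted p. Without EC1 CON the log2 fold change of Ifi35 turned from -0.39 to 0.11, and over the libraries left out it ran from -0.81 to 0.11. All genes higher were 225 to 600 and lower 128 to 584 over the alternatives. Of 81 repeats of the 9 calls with an adjusted p, 75 held, 6 were lost and 0 reversed. By depth, 5 genes were at least 2-fold higher in both mice, and 4 to 7 under the alternatives. Fisher's exact test had at most 2 sites of these genes to test in EC1 and 0 in EC2 under any setting, so its 0 calls say nothing of stability. A rate difference of 0.05 gave 15 sites, of which 14 were higher in TM at sites not listed in CON. Counts of 0 to 6 in CON limit the folds of the Mx genes, Rsad2, Cmpk2, Isg20, Samhd1 and Ifi44.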

Other observations

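At 39 listed sites of the 10 genes the altered base made up over 95% of the reads in every library with at least 5 reads, and 38 of these lay in Rsad2, Cmpk2 and their flanks. The share of near-fixed sites among listed sites was 2.08% for the 10 genes and 2.65% for the whole table. Of the 1876 listed sites of the 10 genes, 449 were assigned to Rsad2 and 328 to Cmpk2. With 38 near-fixed sites, the share was higher at this pair than in the whole table, and lower in the rest of the 10 genes. At 7 near-fixed intronic sites of Rsad2 the reads summed to 6 in CON and 2167 in TM for EC1, and to 13 and 2219 for EC2. At 15 such sites in Cmpk2 introns they summed to 18, 2647, 22 and 2498 in the same order. Summed over these intronic sites, the altered base was read in CON and TM of both mice, and single sites were not all listed in CON.

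At 2 sites in the Rsad2 3′ UTR, positions 26443850 and 26445324 of chromosome 12, all reads of both CON libraries carried the altered base, 24 and 21 in EC1 CON and 20 and 34 in EC2 CON. Neither site was listed in a TM library, although the median depth of the Rsad2 3′ UTR was 3824 reads in EC1 TM and 5638 in EC2 TM. Why these sites are not listed in TM was not tested.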
